A study of Homo sapiens with 12 samples.

Results

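Short cassette exons are exons of at most 51 bases that a transcript can either contain or skip. They were taken here from the skipped exon events of T-47D cells, an established human breast cancer line that expresses the oestrogen receptor (labelled genotype WT, from ATCC). Members were chosen by exon length and by measured reads. An event was kept where its exon had 51 bases or less, where the reads for its inclusion and skipping averaged at least 20 per library, and where the rarer of these 2 forms held at least 5% of the reads. The rule left 1198 events of 997 distinct exons in 873 genes, out of 13469 events of any length past the same read minimums and 97457 listed events. Of the 1198, 241 events held 212 microexons, exons of 27 bases or less, in 198 genes, and 957 events held exons of 28 to 51 bases. In the RNA-seq used for these values, 3 libraries came from cells given 1 µM palbociclib for 24 h and 3 from cells given the solvent DMSO for 24 h. Palbociclib inhibits the kinases CDK4 and CDK6, which drive cells from G1 into S phase, and ATAC-seq, a measure of chromatin accessibility, was made with the same treatments. The sample titles call the ATAC-seq replicates biological, and those of the RNA-seq only number them. The labels do not say how the cultures were set up, so p-values measure the spread between these libraries.

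A cassette exon is included when the spliceosome recognises both of its splice sites, and skipped when the flanking exons are joined directly. Very short exons leave little room for splice factors on the exon itself, and their recognition depends strongly on sequence in the introns around them. Many microexons are known from neurons, where SRRM4 promotes their inclusion, while PTBP1 is known for repressing neural exons in other cells. An exon whose length is a multiple of 3 keeps the reading frame whether it is included or skipped, and other lengths shift it. The inclusion level is the share of transcripts that hold the exon, from 0 to 1, computed from the reads of each form divided by the length over which such reads can fall.

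The RefSeq promoter windows on GRCh38.p14 cover 6 of these exons, and sequence is printed to show how little such an exon has between its splice sites. The 39-base exon of KIF21A, a kinesin motor gene, at chr12:39315932-39315970 on the minus strand, is printed in full, with the exon in capitals and the intron ends in lower case.
KIF21A: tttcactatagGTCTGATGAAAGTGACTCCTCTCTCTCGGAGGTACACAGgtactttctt
For the other 5 exons the last intron bases and the first 3 exon bases, in capitals, are given for the acceptor site.
PHACTR1: gtaattttctcccttcgcagGGG
CTNNBIP1: ccctcttctccctcttgcagGGA
TRIM46: tcctccctcctttgtgtcagCTG
AURKB: cctccccctttctctctaagGAT
IL32: tgagtatttgtgccaggaagACT
Each of the 6 exons began directly after AG, the usual end of an intron. The exons of KIF21A, PHACTR1, CTNNBIP1, TRIM46 and IL32 were followed by GT, the usual start, and for AURKB the window ended 1 base after the exon. The KIF21A exon was in 2 events, and in the deeper one its level was 0.214 ± 0.0748 with DMSO and 0.124 ± 0.0386 with palbociclib (SD, n = 3 each), with levels that overlapped between the groups. The PHACTR1 exon of 45 bases, in a gene for an actin and phosphatase binding protein, had levels of 0.289 ± 0.0395 with DMSO and 0.337 ± 0.0475 with palbociclib, which overlapped as well. So did those of AURKB (0.723 ± 0.0166 and 0.783 ± 0.102) and TRIM46 (0.0561 ± 0.0298 and 0.0558 ± 0.0520). The groups did not overlap for CTNNBIP1 (0.0374 ± 0.0161 and 0.106 ± 0.0192, edgeR adjusted p = 0.678) or IL32 (0.839 ± 0.0169 and 0.905 ± 0.0205, edgeR adjusted p = 0.859).

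Lengths that keep the reading frame were common among the shortest exons. Of the 212 microexons, 146 (68.9%) had a length that is a multiple of 3, and of the 785 exons of 28 to 51 bases, 407 (51.8%) did. Among the 9884 exons over 51 bases past the same read minimums the share was 40.4%. The most common microexon lengths were 24 and 27 bases, with 32 exons each, followed by 18 bases with 18 exons and 21 bases with 17 exons. The introns on either side had medians of 1730 and 1920.5 bases for microexons and of 2329 and 2400.5 bases for exons over 51 bases. At the borders of the rule, 64 exons had 51 bases and 32 had 52, and 32 exons had 27 bases and 9 had 28. Of short events, 51 were kept with 20 to under 22 reads, and 45 with 18 to under 20 reads were left out. A further 118 were kept with a rarer form of 5 to under 6%, and 129 with 4 to under 5% were left out.

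**Figure D1:**
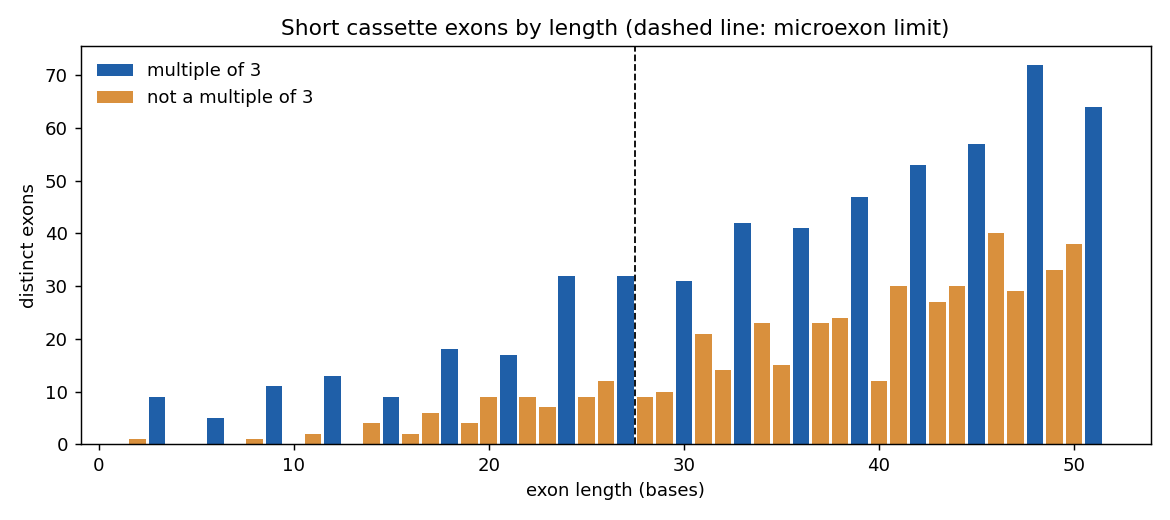
Number of distinct short cassette exons (vertical axis) at each length in bases (horizontal axis), with lengths that are a multiple of 3 in blue and others in orange. The multiples of 3 stand above their neighbours, and the dashed line marks the microexon limit, below which 146 of 212 exons are multiples of 3.

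Short cassette exons covered the whole range of inclusion in these cells. The median level lay between 0.506 and 0.530 in the 6 libraries, and 835 of the 1198 events (69.7%) had a mean level between 0.1 and 0.9. In events over 51 bases the library medians lay between 0.354 and 0.365. The rule limits which levels can occur, and a longer exon gathers more reads per included transcript. At the median length of 39 bases the minimum of the rarer form keeps levels from 0.0364 to 0.932. At the 122 bases typical of longer exons it keeps levels from 0.0230 to 0.895. Whether this bears on the medians was not tested. Microexon levels also differed by frame, with a median of 0.413 over 163 events whose length is a multiple of 3 and of 0.724 over 78 events of other lengths. In exons over 51 bases the order was the other way round, with medians of 0.410 over 4898 events and 0.341 over 7373.

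The inclusion reads of all 1198 short exon events crossed a splice junction. This follows from the rule, since a read of 100 bases cannot lie within an exon of at most 51. In 730 events the reads over the junctions before and after the exon were within 2-fold of each other (1 read added to each), and in 252 (21.0%) they differed by over 10-fold. Where 1 junction carried nearly all the reads, the level is not that of an exon spliced on both sides. An exon could also stand in several events with different neighbouring exons: 150 exons did, in up to 5 events, and in 28 of them the mean levels of their events were at least 0.5 apart.

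Among the 10 exons of at most 3 bases, levels ran from 0.0886 to 0.940 over 12 events. Of these exons, 9 had 3 bases, the length of 1 codon, and 1 had 2 bases, which shifts the reading frame. CYTH1 and CYTH2, which encode cytohesins, exchange factors for ARF GTPases, each had a 3-base exon. CYTH1 showed levels of 0.648, 0.665 and 0.535 with DMSO and of 0.672, 0.594 and 0.616 with palbociclib. CYTH2 showed levels of 0.494, 0.609 and 0.566 with DMSO and of 0.534, 0.562 and 0.608 with palbociclib. Both were included at middling levels in all 6 libraries, and the groups overlapped. CLASP2, a microtubule plus-end protein gene, had a 3-base exon at 0.512 ± 0.0830 and 0.538 ± 0.0742, and ASXL1, a chromatin regulator gene, had one at 0.867 ± 0.00785 and 0.912 ± 0.0217, with an adjusted p of 0.630. The 2-base exon of SEPTIN7 had 25.3 reads per library and levels from 0 to 1 within each group, so its level was not resolved. Of the exons of 6 bases, those of HOOK2 and HOOK3, which encode linkers of dynein to cargo, were both rarely included, at 0.0860 ± 0.0123 and 0.176 ± 0.0367 with DMSO and at 0.0822 ± 0.00542 and 0.155 ± 0.0387 with palbociclib. The 6-base exon of DCTN2, a subunit of the dynein activator dynactin, was at 0.232, 0.177 and 0.190 with DMSO and at 0.172, 0.149 and 0.159 with palbociclib, with groups that did not overlap and an adjusted p of 0.450 in the edgeR test.

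The comparison of palbociclib with DMSO asks whether the drug changed how often these exons were included. The rule did not use the difference between the groups, but its minimums pooled the reads of both. An event could thus pass through the reads of either group. That of CD46 passed the minimum of the rarer form through the palbociclib libraries, since its inclusion reads fell short of it in each DMSO library. Few short exon events were called: 1 was higher, that of CD46, and 2 were lower, those of HNRNPA2B1 and INCENP, at an adjusted p under 0.05 (quasi-likelihood test of edgeR on the reads of both forms, Benjamini-Hochberg over all 13469 events). Of all events 0.163% were called higher and 0.148% lower. The 3 calls are 0.250% of the 1198 events, beside 0.312% of all events. At an unadjusted p under 0.05 there were 96 events (8.01%), 43 higher and 53 lower, beside 9.57% of all events. The levels of the groups did not overlap in 173 short exon events (14.4%), beside 14.9% of all, and the median difference was -0.000998. Microexons gave 0 higher calls, with 8 events higher and 12 lower at an unadjusted p under 0.05 and 0 higher calls with DESeq2, and 1 lower call, that of INCENP. The test used a size per library, shared by its inclusion and skipping columns. With TMM factors in its place, 2 short events were called higher and 0 lower.

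The size of a difference went with the number of reads. The level differed by at least 0.1 in 134 events, 67 higher and 67 lower (11.2%), beside 15.6% of all events. The share was 23.7% of short events with 20 to under 50 reads, 6.46% with 50 to under 200 and 2.01% with 200 or more. The median size of the difference was 0.0325, and the median SD of single libraries was 0.0449 with DMSO and 0.0413 with palbociclib.

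**Figure D2:**
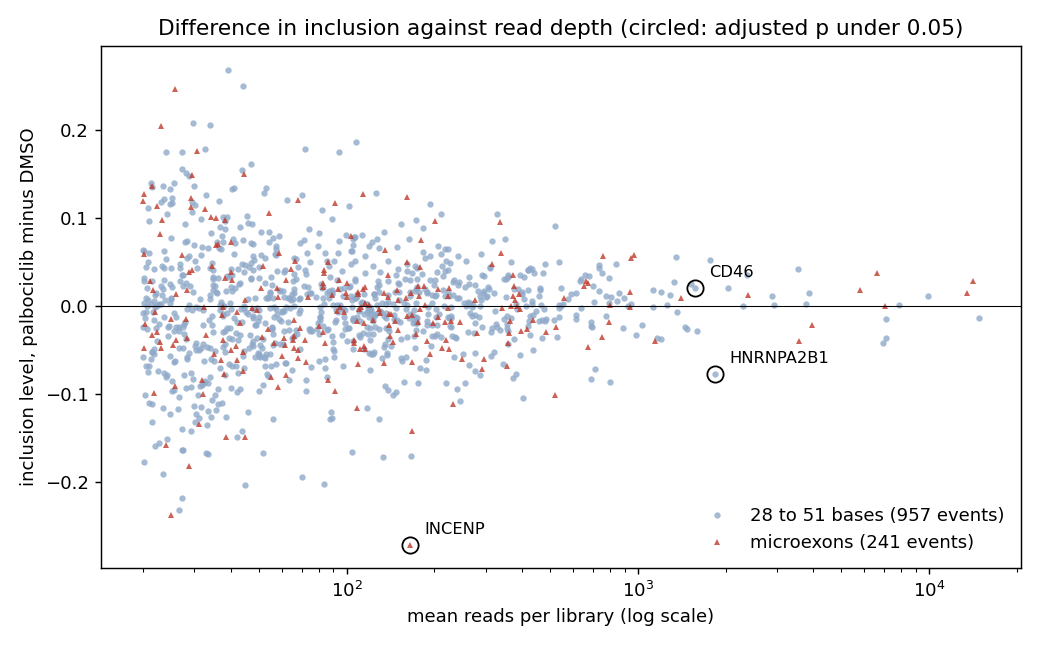
Inclusion level with palbociclib minus that with DMSO (vertical axis) against the mean reads per library (horizontal axis, log scale) for the 1198 events, with microexons as red triangles and exons of 28 to 51 bases as blue points. The spread narrows to the right, and the 3 circled events have an adjusted p under 0.05.

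INCENP encodes the scaffold of the chromosomal passenger complex, which holds Aurora B kinase at centromeres and the spindle midzone. Its 12-base microexon (chr11:62141500-62141511, plus strand) was included at levels of 0.629, 0.626 and 0.646 with DMSO and of 0.446, 0.321 and 0.321 with palbociclib. All 3 palbociclib libraries lay below all 3 DMSO libraries. Inclusion fell by 0.271, from 0.634 ± 0.0107 to 0.363 ± 0.0723 (SD, n = 3 each; log2 odds ratio -1.61; edgeR adjusted p = 0.0496). The inclusion reads were 179, 210 and 139 with DMSO and 28, 26 and 18 with palbociclib, and the skipping reads were 94, 112 and 68, then 31, 49 and 34. The 2 junctions of the exon carried 562 and 536 reads. INCENP RNA itself fell from 29.9 ± 2.00 to 5.98 ± 0.241 FPKM, a level per transcript length and library size, a log2 change of -2.14 (limma adjusted p = 1.8e-08). In bulk RNA, fewer cells with this transcript and less of it per cell cannot be told apart. The call lies close to the threshold: the adjusted p was 0.106 with DESeq2, 0.0656 with TMM factors and 0.0549 over the events with junctions within 2-fold, an alternative chosen after seeing the data. It was also lost on leaving out any of the libraries other than palbociclib replicate 1, with adjusted p-values from 0.135 to 0.242.

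CD46 encodes a surface receptor that protects cells from complement, and its transcripts are known to vary in a stretch rich in serine, threonine and proline and in the tail. A 45-base exon (chr1:207767607-207767651, plus strand) was rare, at levels of 0.0315, 0.0273 and 0.0284 with DMSO and of 0.0513, 0.0470 and 0.0507 with palbociclib. The groups did not overlap. Inclusion rose from 0.0291 ± 0.00217 to 0.0496 ± 0.00235 (log2 odds ratio 0.80; edgeR adjusted p = 0.0295). The inclusion reads were 51, 60 and 48 with DMSO and 122, 124 and 149 with palbociclib, beside 1077 to 1467 and 1550 to 1920 skipping reads. The nearby 45-base exon at chr1:207767779-207767823 was in 2 events, at 0.487 ± 0.0547 and 0.529 ± 0.0518 in the deeper (adjusted p = 0.640) and at 0.903 ± 0.0121 and 0.946 ± 0.0105 in the other (adjusted p = 0.123). CD46 RNA rose by 0.20 on the log2 scale, from 194 ± 6.73 to 223 ± 5.90 FPKM (limma adjusted p = 0.0021). The call on the rare exon was lost on leaving out any one library other than DMSO replicate 1, with adjusted p-values from 0.0613 to 0.171. With no minimum of the rarer form it was lost too, as were those of INCENP and HNRNPA2B1, each at an adjusted p of 0.763.

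HNRNPA2B1 encodes a nuclear RNA-binding protein that itself regulates splicing. A 38-base exon (chr7:26192301-26192338, minus strand) had levels of 0.796, 0.803 and 0.799 with DMSO and of 0.741, 0.716 and 0.709 with palbociclib. The groups stood apart, and the level fell by 0.0775, from 0.799 ± 0.00397 to 0.722 ± 0.0171 (log2 odds ratio -0.62; edgeR adjusted p = 0.0419). Here 1 junction of the exon carried 9038 reads and the other 6, so nearly all reads counted as inclusion joined the exon on 1 side only. The 36-base exon of the same gene at chr7:26197831-26197866, the length of the exon known to separate the A2 and B1 forms of the protein, was at 0.167 ± 0.00585 and 0.178 ± 0.00444, with 9954 reads per library and an adjusted p of 0.759. HNRNPA2B1 RNA fell by 0.57 on the log2 scale, from 686 ± 26.4 to 462 ± 23.6 FPKM (limma adjusted p = 2.2e-05). The exon call was lost with DESeq2 (adjusted p = 0.0987), with TMM factors (0.119) and without any one library other than palbociclib replicate 1 (0.0894 to 0.204).

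Of 169 microexon events with at least 50 reads, 15 (8.88%) had an unadjusted p under 0.05 and groups that did not overlap, 5 higher and 10 lower, beside 9.05% of all events of that depth. All but that of INCENP missed an adjusted p of 0.05, so their values are given as levels. PTPRS, a receptor tyrosine phosphatase gene of adhesion and axon guidance, had a 12-base exon at 0.842, 0.860 and 0.844 with DMSO and at 0.738, 0.672 and 0.711 with palbociclib (adjusted p = 0.178). The gap of 0.142 was larger than the spread in either group, and the junctions carried 621 and 736 reads. MAX, the partner of MYC at DNA, had a 27-base exon at 0.441, 0.439 and 0.511 with DMSO and at 0.382, 0.353 and 0.352 with palbociclib (adjusted p = 0.276). A short insert near the DNA-binding region of MAX is known to separate its 2 main forms. TRAPPC13, of a vesicle tethering complex, had an 18-base exon at 0.777, 0.821 and 0.767 with DMSO and at 0.666, 0.739 and 0.627 with palbociclib (adjusted p = 0.327). MAP4K5, a kinase gene, had a 3-base exon at 0.897 ± 0.0329 and 0.834 ± 0.0187, and TRIM41, a ubiquitin ligase gene, a 23-base exon at 0.963 ± 0.0108 and 0.914 ± 0.0204. Skipping reads of TRIM41 were under 5% in each DMSO library, so its event passed the 5% minimum through the palbociclib libraries.

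On the higher side, AP2M1 encodes the medium subunit of the AP-2 adaptor, which selects cargo for clathrin-coated vesicles. Its 6-base exon was at 0.779, 0.752 and 0.742 with DMSO and at 0.8005, 0.807 and 0.779 with palbociclib, from 6625 reads per library. The lowest palbociclib library lay just above the highest DMSO library, and the adjusted p was 0.249. CD47, the surface signal that inhibits phagocytosis and whose cytoplasmic tail is known to be spliced in several forms, had a 25-base exon at 0.218, 0.242 and 0.268 with DMSO and at 0.331, 0.340 and 0.343 with palbociclib (adjusted p = 0.295). In that event the junctions carried 26 and 683 reads, and in a second event of the same exon, with 3257 and 2569, the levels were 0.611 ± 0.0236 and 0.665 ± 0.0279 (adjusted p = 0.525). SUPT5H, an elongation factor gene, had a 12-base exon at 0.895 ± 0.00502 and 0.922 ± 0.00609, and UGGT1, which checks glycoprotein folding in the endoplasmic reticulum, a 24-base exon at 0.784 ± 0.0112 and 0.859 ± 0.0338 (adjusted p = 0.484 and 0.494). RPS24, a ribosomal protein gene, had a 3-base exon at 0.0810 ± 0.00702 and 0.0962 ± 0.00942 in its deepest event, with 13465 reads per library (adjusted p = 0.279). In a second event with other neighbouring exons the same 3 bases were at 0.732 ± 0.00313 and 0.733 ± 0.00715.

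Of 624 events of exons of 28 to 51 bases with at least 50 reads, 52 (8.33%) met the same limits, 21 higher and 31 lower, a share near the 9.05% of all events. Those with the largest higher values began with MDM4, an inhibitor of p53, whose 39-base exon was at 0.286, 0.211 and 0.306 with DMSO and at 0.526, 0.384 and 0.453 with palbociclib (adjusted p = 0.298). Its 2 junctions carried 37 and 260 reads. APTX, a DNA strand break repair gene, had a 47-base exon at 0.744 ± 0.0128 and 0.860 ± 0.0388 (adjusted p = 0.251), and a second event of this exon went the other way, at 0.851 ± 0.0665 and 0.820 ± 0.132. PIP5K1C, a lipid kinase gene, had a 33-base exon at 0.788 ± 0.0244 and 0.922 ± 0.0733 (adjusted p = 0.404). MYH10, a nonmuscle myosin gene, had a 30-base exon at 0.0738 ± 0.0315 and 0.154 ± 0.0100. SEC31A, of the COPII coat, had a 39-base exon at 0.0942 ± 0.0181 and 0.173 ± 0.0400, with junctions of 25 and 107 reads. ZDHHC11 and IQCE differed by 0.0786 and 0.0758, and the junctions of ZDHHC11 carried 162 and 530 reads. The 33-base exon of CD47 was at 0.264 ± 0.00832 and 0.340 ± 0.0336 in an event whose junctions carried 24 and 765 reads. In its deepest event, with 1036 reads per library, it was at 0.510 ± 0.0295 and 0.489 ± 0.0106.

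The largest lower values were those of CRYBG2, whose 36-base exon was at 0.808, 0.917 and 0.827 with DMSO and at 0.579, 0.736 and 0.628 with palbociclib (adjusted p = 0.240). KLC1, a kinesin light chain gene, had a 51-base exon at 0.399 ± 0.0626 and 0.205 ± 0.0279, with junctions of 171 and 7 reads. In 2 deeper events of this exon the levels were 0.857 ± 0.0341 and 0.848 ± 0.0248, and 0.363 ± 0.0640 and 0.324 ± 0.0690. NKTR, which encodes a cyclophilin with serine and arginine repeats, had 2 exons of 28 bases, at 0.449 ± 0.0517 and 0.279 ± 0.0152 for the first and at 0.425 ± 0.00368 and 0.253 ± 0.0561 for the second (adjusted p = 0.222 and 0.270). The groups did not overlap for either, and 28 bases is not a multiple of 3. ITGB4, an integrin gene of hemidesmosomes, had a 34-base exon at 0.859 ± 0.0193 and 0.730 ± 0.0796, with junctions of 45 and 420 reads. SLC12A2, the sodium, potassium and chloride cotransporter gene, had a 48-base exon at 0.812 ± 0.0505 and 0.683 ± 0.0272. LRRC42 and RALGAPA1 differed by -0.166 and -0.108. GPSM2, which links cortical force generators to the mitotic spindle, had a 46-base exon with 16, 21 and 13 inclusion reads with DMSO and 0, 1 and 1 with palbociclib, at levels of 0.146 ± 0.0216 and 0.0176 ± 0.0183 (adjusted p = 0.213). GPSM2 RNA fell by 1.73 on the log2 scale, from 29.1 ± 0.599 to 8.12 ± 1.07 FPKM (limma adjusted p = 6.4e-07).

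**Figure D3:**
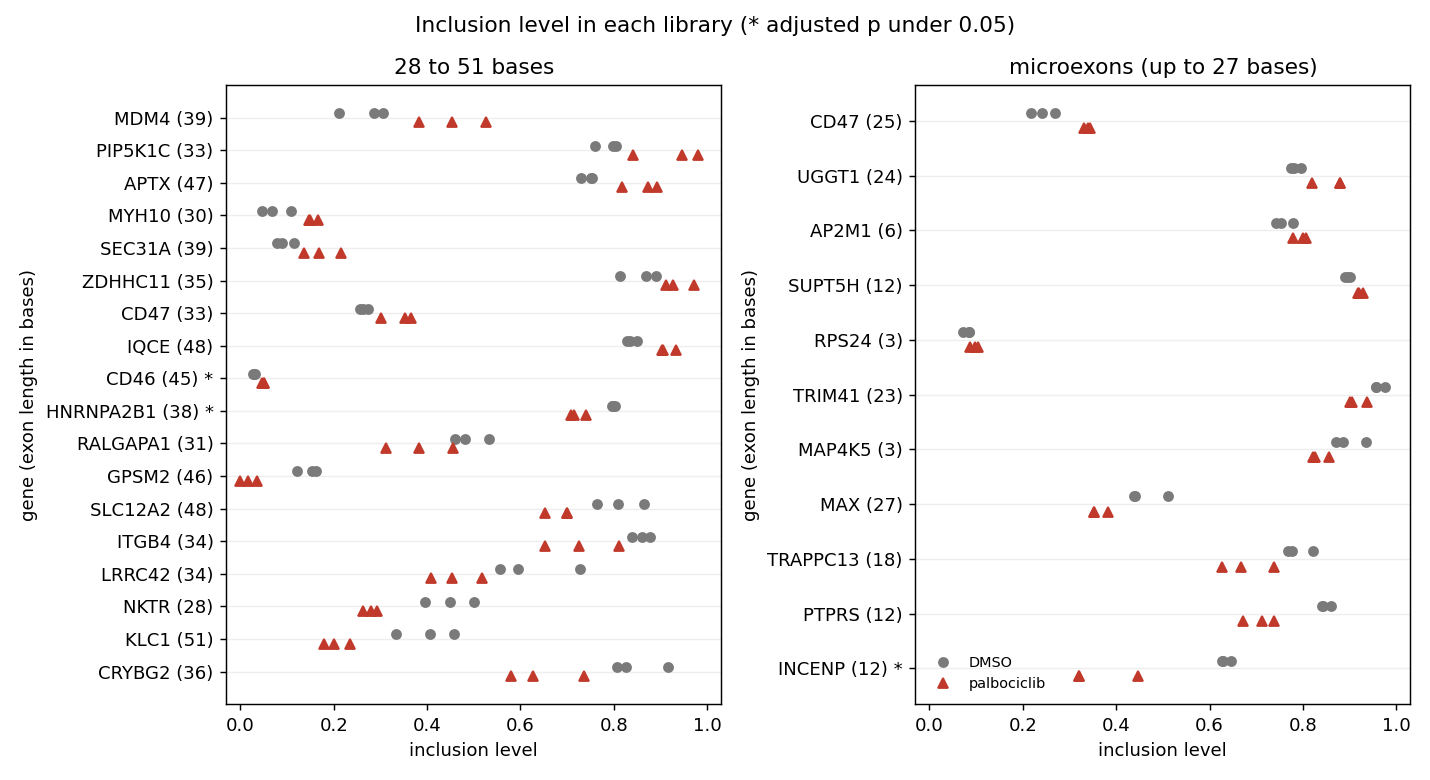
Inclusion level in each of the 3 DMSO libraries (grey circles) and 3 palbociclib libraries (red triangles), for exons of 28 to 51 bases on the left and microexons on the right, ordered by the difference. The groups do not overlap in any of the events, which were chosen so, and CD46, HNRNPA2B1 and INCENP, marked with an asterisk, have an adjusted p under 0.05.

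Of the 1198 short exon events kept by the rule, 63 (5.26%) have an FDR under 0.05 in the authors' deposited table, made with the rMATS test. Of the 63, 29 are higher and 34 lower, and the share over all 13469 events past the read minimums is 6.19%. Microexon events make up 9 of the 63, 2 higher and 7 lower. Short events that the rule left out were not counted. In 50 of the 63 the edgeR test on the same reads gave an unadjusted p under 0.05, with the same direction in each. The smallest FDR in the authors' deposited table among the short events kept here is that of INCENP, at 4.7e-05.

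Of 44 genes known for short regulated exons, many of them from neurons, 19 had a short exon here, in 28 events, 18 of them microexon events. None passed an edgeR adjusted p of 0.05, 2 were lower and 0 higher at an unadjusted p under 0.05, beside 9.57% of all events, and the authors' deposited table has 2 at an FDR under 0.05, beside 6.19%. The median difference over the list was -0.0107 and that over all short events -0.000998. PICALM, a clathrin assembly gene, had its 24-base exon mostly included, at 0.859 ± 0.0125 and 0.860 ± 0.0145. PTK2, which encodes focal adhesion kinase, had an 18-base exon mostly skipped, at 0.0396 ± 0.00616 and 0.0482 ± 0.0141. PTPRF, of the same phosphatase family as PTPRS, had a 27-base exon at 0.575 ± 0.0286 and 0.610 ± 0.0195. The exons of SPAG9 (42 bases), GIT1 (27 bases), ERC1 (12 bases) and a second PTPRS exon (48 bases) were all mostly skipped, with mean levels between 0.0523 and 0.134 in both groups. EXOC1, an exocyst gene, was at 0.597 ± 0.0439 and 0.530 ± 0.0189, CASK, a scaffold gene of cell junctions, at 0.352 ± 0.0248 and 0.252 ± 0.0529, and ROBO1, a SLIT receptor gene, at 0.816 ± 0.0210 and 0.752 ± 0.112. The smallest adjusted p among these 10 was that of CASK, at 0.564. In a second, shallower event the CASK exon was at 0.523 ± 0.0201 and 0.539 ± 0.0696. A second PICALM event, with other neighbouring exons, was at 0.728, 0.656 and 0.641 with DMSO and at 0.623, 0.647 and 0.719 with palbociclib.

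Among the deepest microexons with levels of 0.2 to 0.8, the spread between libraries varied from gene to gene. PSAP, the precursor of the lysosomal saposins, had a 9-base exon at 0.756 ± 0.0215 and 0.768 ± 0.00327 from 2389 reads per library. VPS29, a retromer gene, had a 12-base exon at 0.322, 0.337 and 0.330 with DMSO and at 0.403, 0.407 and 0.350 with palbociclib (adjusted p = 0.530). SNX14, a sorting nexin gene, had a 27-base exon at 0.231 ± 0.0368 and 0.185 ± 0.0314. In SNHG6, a noncoding host gene of small nucleolar RNAs with a 19-base exon, 1 junction carried 4396 reads and the other 0.

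The RNA levels of the genes that hold these exons were tested separately. Of 865 host genes tested, 211 (24.4%) were higher and 230 (26.6%) lower (limma on log2(FPKM + 1), adjusted p under 0.05), beside 20.9% and 22.9% of all 15869 genes. With quantile normalization 305 were higher and 174 lower. The median level of the host genes was 17.5 FPKM, beside 8.91 over all genes, and the read minimum of the rule bears on this. Of the 196 tested genes with a microexon, 61 were higher and 36 lower. RNA was lower by at least 1 log2 in 28 host genes (3.24%), beside 3.07% of all genes, and higher by that much in 0, beside 0.189%.

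The 5 host genes with the largest falls are given here. AURKB, the Aurora B kinase gene, fell by 3.86 on the log2 scale, from 43.1 ± 1.94 to 2.03 ± 0.156 FPKM. NUSAP1, a spindle protein gene, fell by 3.76, and HMMR, a spindle and hyaluronan binding protein gene, fell by 3.30. FOXM1, which encodes a transcription factor of mitotic genes, fell by 3.20, and PRC1, a midzone protein gene, fell by 3.14. The 33 short exon events of the 28 genes had 24899 reads with DMSO and 4973 with palbociclib, while the other 1165 events had 902363 and 1054440. The median SD of the level in those 33 events was 0.0286 with DMSO and 0.0642 with palbociclib, so their palbociclib levels were less precise. The 45-base exon of FOXM1 was at 0.876, 0.845 and 0.865 with DMSO and at 0.974, 0.844 and 0.898 with palbociclib, which overlapped. HMMR had exons of 48 and 45 bases that end at the same base and start 3 bases apart, at 0.218 ± 0.0347 and 0.162 ± 0.0367 for the longer and at 0.0971 ± 0.00944 and 0.0768 ± 0.00711 for the shorter. KIF23, a midzone kinesin gene, had a 42-base exon at 0.504 ± 0.00770 and 0.539 ± 0.0924. FOXM1, HMMR and KIF23 were picked here after their values were seen, and their adjusted p-values were 0.807, 0.630 with 0.848, and 0.935.

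**Figure D4:**
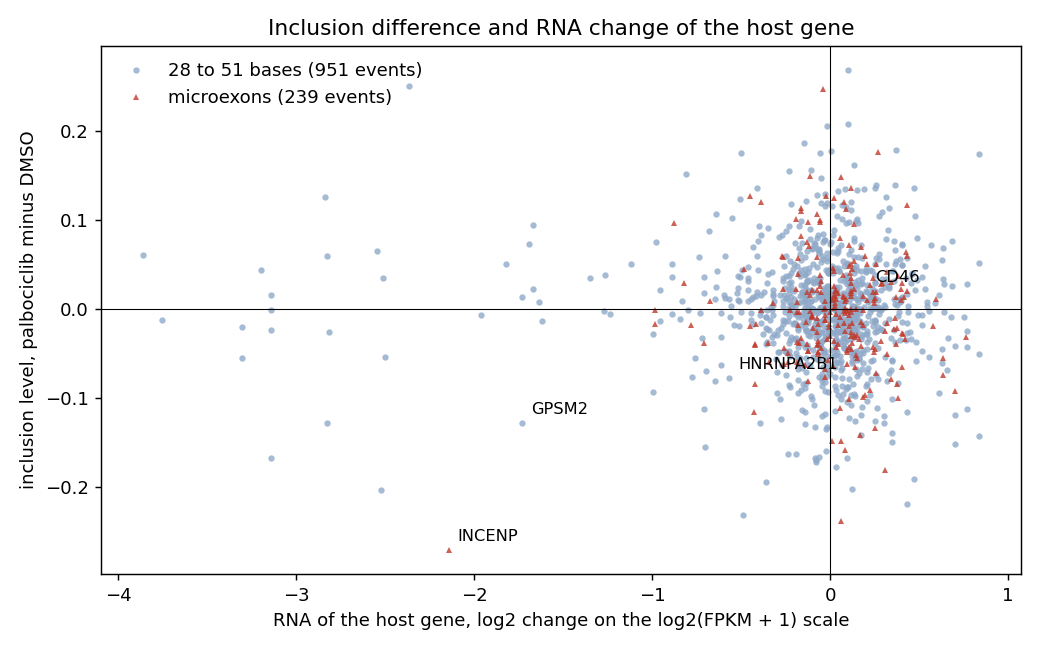
Inclusion level with palbociclib minus that with DMSO (vertical axis) against the log2 change in RNA of the host gene (horizontal axis, log2(FPKM + 1) scale), for the 951 events of 28 to 51 bases (blue) and 239 microexon events (red) whose gene was tested. Genes with strong falls in RNA lie on the left on both sides of 0 in inclusion, INCENP among them at the lowest difference.

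The RNA of splicing regulators was measured in the same libraries for a list of 32 genes. Of these, 27 were tested: 17 fell and 4 rose, beside 22.9% lower and 20.9% higher of all genes, and the median change was -0.24 on the log2 scale, beside 0.00233 over all genes. SRRM4, CELF2, NOVA2 and RBFOX1 were not analysed here, and KHDRBS3 was below the minimum of 0.5 FPKM. The SRRM4 relative SRRM3, which also promotes microexons, was at 9.38 ± 0.467 and 9.85 ± 0.577 FPKM (adjusted p = 0.423). SRSF11 and RNPS1, which are known partners of SRRM4 at microexons, differed: RNPS1 fell by 0.29 on the log2 scale from 89.3 ± 1.41 to 72.6 ± 2.11 FPKM, and SRSF11 was at 90.6 ± 2.64 and 89.9 ± 0.874 FPKM (adjusted p = 0.805).

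Among repressors, PTBP1 was at 119, 116 and 115 FPKM with DMSO and at 81.2, 84.4 and 83.3 with palbociclib, with no overlap. It fell by 0.49 on the log2 scale (SE 0.03; limma adjusted p = 4.8e-06). PTBP3 fell by 0.39, and its neuronal relative PTBP2 was at 6.22 ± 0.236 and 5.55 ± 0.383 FPKM (adjusted p = 0.109). HNRNPA1 and HNRNPF, nuclear ribonucleoprotein genes, each fell by 0.43. SRSF2, an activator of exon recognition, fell by 0.53, from 240 ± 9.50 to 166 ± 5.53 FPKM, and SRSF1 fell by 0.32. QKI, which binds introns next to exons, fell by 0.45. The factors that rose were MBNL2 (0.46), ESRP2 (0.24), SRRM2 (0.24) and RBFOX2 (0.18), while ESRP1, the other epithelial splicing factor of its family, fell by 0.31 and MBNL1 by 0.22. Whether any of these changes bear on the exons was not tested.

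**Figure D5:**
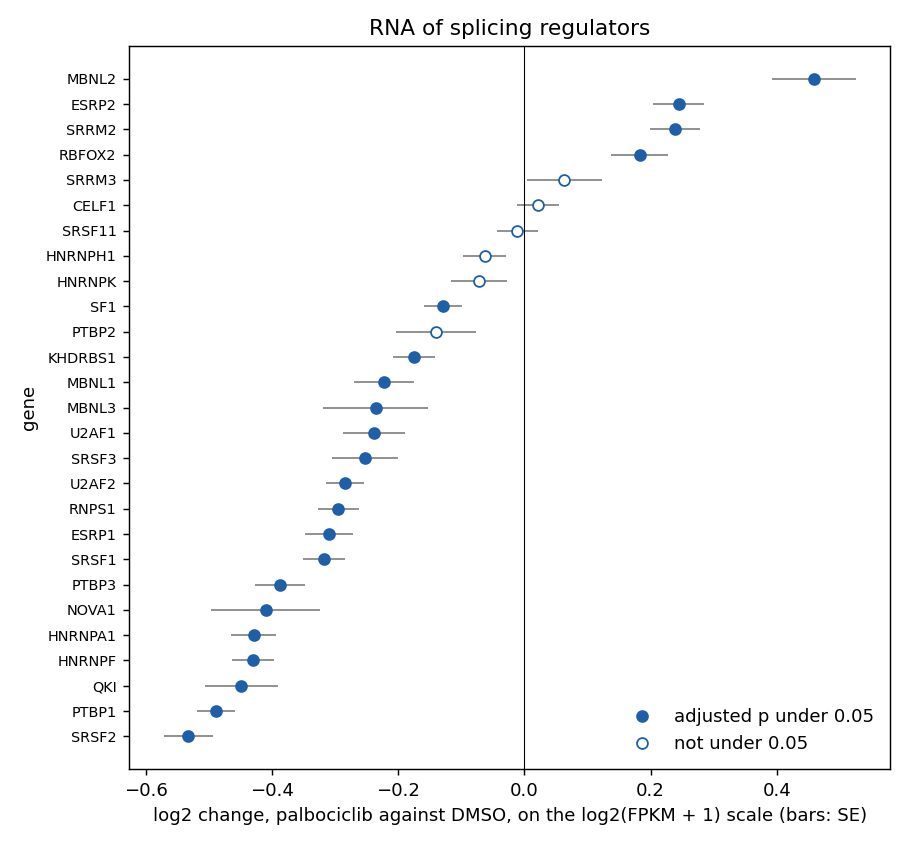
Log2 change in RNA with palbociclib against DMSO (horizontal axis, log2(FPKM + 1) scale, bars show the SE) for 27 splicing regulators (vertical axis), with filled points for an adjusted p under 0.05. In this fit 17 lie below 0 with filled points and 4 above it.

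Of the 997 short exons, 20 (2.01%) overlapped an ATAC peak by at least 1 base, 3 of them microexons, beside 2.90% of exons over 51 bases. They include the PIP5K1C exon described above, whose peak had 15.1 ± 0.919 CPM (counts scaled to the library's total over peaks) with DMSO and 10.1 ± 1.71 with palbociclib. The peak at a 37-base exon of PHF21A had 28.4, 27.1 and 28.5 with DMSO and 36.2, 35.7 and 37.0 with palbociclib. Of the 20 peaks, 8 had groups that stood apart, these included, with 5 higher and 3 lower, beside 28.5% of all 38121 peaks. Both peaks were picked after their values were seen, and with 3 libraries each an exact permutation test of a single peak cannot go below p = 0.1.

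As to the whole libraries, the 1198 events held 260109 to 377051 reads per library. All 9 luminal breast markers were present, with a summed level of 5593 to 6118 FPKM with DMSO and 7516 to 8296 with palbociclib. Of the markers of other cells, 3 of 4 for fibroblasts, 1 of 3 for leukocytes, 0 of 3 for endothelium and 2 of 5 for neurons had values, with COL1A1 and SYT1 above 1 FPKM.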

How the data were processed

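RNA-seq and ATAC-seq libraries were grouped by their labels, 3 per treatment and assay. Members and gene lists were chosen with earlier results of these data known. The authors' deposited skipped exon table gives, per the file headers, counts of reads for both forms in each library. It also has the level, its change between groups (a score), a p-value and its FDR, on GRCh38 per the submitters' processing notes. These also name fastp 0.23.2, Salmon 1.10.2, STAR 2.7.10b, SAMtools 1.16 and DESeq2 1.44.0. The rMATS version and annotation are not given in the sources used here. The skipping form spans 99 bases. Gene levels were FPKM deposited by the authors, whose DESeq2 log2 changes and adjusted p-values are a separate deposited table. ATAC values were counts per peak from featureCounts, per the file headers.

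Inclusion was tested with edgeR 4.0.16 (R 4.3.3) on the 12 inclusion and skipping columns, with a term per library, an inclusion term and an inclusion-by-palbociclib term, over all 13469 events. Recomputed levels lay within 0.0005 of those deposited. RNA was tested with limma 3.58.1 on log2(FPKM + 1) over genes with a mean of at least 0.5 FPKM, so changes of low genes are understated. Both scripts were tested on simulated data. Intervals are SDs over libraries. Counting error adds to them at low depth.

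Named events were those with an adjusted p under 0.05, then, at 50 or more reads, an unadjusted p under 0.05 and groups that did not overlap, the largest 8 each way of 28 to 51 bases and 6 each way of microexons (5 higher existed), 1 per gene, then the 8 deepest microexons at levels of 0.2 to 0.8 and 10 from the list of known genes. Of these deepest microexons, 1 is not reported here. The second exons of CD46, HNRNPA2B1 and NKTR, the exons of 6 bases or less, and those with printed sequence are given besides. Alternatives were DESeq2 1.42.0, TMM factors, other read minimums, 1 event per exon, a replicate block, leaving out each library, another pseudocount (0.1), no filter on FPKM and quantile normalization, and, added later, junction balance.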

Additional observations from a re-analysis of the deposited data

How the results depend on the processing

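Counts of short events called higher and lower, 1 and 2 in the reported test, were 1 and 0 with DESeq2, 2 and 0 with TMM factors, 4 and 2 with no minimum of reads, 0 and 0 with no minimum of the rarer form, 2 and 2 with a rarer form of at least 10%, 1 and 2 with at least 50 reads or with 1 event per exon, and 1 and 0 with junctions within 2-fold. For microexons, 0 and 1 in the reported test, they were 0 and 0 with DESeq2, 1 and 0 with TMM factors, 1 and 1 with no minimum of reads, 0 and 0 with no minimum of the rarer form, 1 and 1 with a rarer form of at least 10%, and 0 and 0 with junctions within 2-fold. Leaving out 1 library gave 0 to 2 higher and 0 to 2 lower short events and 0 to 1 higher and 0 to 1 lower microexon events. Without a minimum of the rarer form more events were tested, but the cause of this change, as of the others, was not tested.

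Deviations of each library from the mean of its group, not the levels themselves, were compared between DMSO and palbociclib. Those of same-numbered libraries correlated by 0.0254, 0.00348 and 0.0103 in inclusion and by 0.106, -0.00513 and 0.0879 in log2 FPKM. Those of libraries with different numbers correlated by -0.0295 to 0.0206 in inclusion and by -0.139 to 0.0509 in log2 FPKM. With 3 libraries per group these values cannot decide whether the numbers pair the libraries. With the replicate block 6 short events were higher and 4 lower, and 3 microexon events were higher and 2 lower, the 6-base exon of AP2M1 (log2 odds ratio 0.32) and the 3-base exon of RPS24 (0.27) among the higher. The block gave 220 higher and 230 lower host genes.

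Host genes called higher and lower numbered 186 to 198 and 192 to 233 on leaving out 1 library, and regulators 4 and 16 to 17. Values near 0 changed sign on leaving out 1 library: the second RPS24 event lay between -0.0260 and 0.0216, PICALM between -0.0816 and 0.101, SPAG9 between -0.269 and 0.297 and ERC1 between -0.713 and 0.108 in log2 odds ratio. The RNA change of SRSF11 was -0.0112 as reported, 0.0217 with quantile normalization, and between -0.0347 and 0.00536 on leaving out 1 library. RPS24 RNA was 0.12 as reported and -0.21 with quantile normalization. Of single regulators, MBNL3 (adjusted p = 0.0484 with limma) lost its call with the other pseudocount, with no filter, with quantile normalization and without any one library other than DMSO replicate 1. Depth limits the events with 20 to under 50 reads, whose median SD was 0.0872 with DMSO.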
